A study of Mus musculus with 10 samples.

Results

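Homozygous loss of SHP-1 was compared with heterozygous loss in CD4+CD25+ T cells, the lymph node fraction that is rich in regulatory T cells (Treg cells). The comparison used 6 of the 10 arrays of the study, the 3 labelled homozygous (me) and the 3 labelled heterozygous (he), and 4 arrays from wild type mice (WT) helped to estimate the spread. All mice were BALB/c and 17 to 19 days old, and in all groups the cells came straight from pooled nodes of several body sites with no culture or treatment. The he mice carried 1 knockout allele of SHP-1 and the me mice carried 2, the state that gives the motheaten phenotype. The labels name no promoter, Cre or particular mutation, so the loss is read as present in every cell of the mouse, and the he mice are a control that lacks an allele itself. They call the arrays biological replicates and say nothing of separate animals, so a p-value here measures only the spread between these samples. A CD4+CD25+ fraction can also hold activated conventional T cells, and in such bulk RNA a change in the share of a cell type and a change in RNA per cell cannot be told apart.

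SHP-1, encoded by Ptpn6, is a tyrosine phosphatase of blood cells with a pair of SH2 domains. It docks on inhibitory receptors whose cytoplasmic tails carry phosphorylated tyrosine motifs and removes phosphate from kinases and adaptors of the antigen receptor and cytokine receptor pathways. Motheaten mice develop inflammation with many myeloid cells and raised antibody. In these mice the comparison between me and he asks what the loss of the remaining allele adds.

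Levels are given as log2(intensity + 32) after quantile normalisation, and differences as me minus he on that scale with the standard error (SE) of a limma fit. The arrays formed 2 sets by correlation, A (WT 1, WT 2, he 1, me 1 and me 3) and B (WT 3, WT 4, he 2, he 3 and me 2). Correlation was at least 0.970 within sets and 0.854 to 0.944 between them, and within set A the array closest to set B was me 3. The fit therefore held array set as a term. Within set A the he level rests on he 1 alone, and within set B the me level rests on me 2 alone. By Xist, 3 of 3 he arrays were female and me 3 was female, while me 1 and me 2 were male, as were 2 of 4 WT arrays. As a measure of RNA quality, the 3' over 5' signal of the Gapdh controls was 9.71, 7.88 and 8.53 in he and 10.9, 9.92 and 13.8 in me, which do not overlap. The same ratio for actin was 13.9, 16.5 and 14.5 in he and 13.9, 12.4 and 12.1 in me. Sums without the brightest member of a list were added after the data had been seen. The part of sex and of RNA quality in the results that follow was not tested beyond the values given with them.

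Ptpn6 transcripts were lower in me than in he. At the brighter of its 2 probe sets the level was 9.30, 9.33 and 9.54 in he 1 to 3 and 8.84, 9.08 and 9.05 in me 1 to 3. At the dimmer one it was 8.75, 8.71 and 8.98 in he and 8.05, 8.31 and 8.17 in me. Every me array lay below every he array at both, and the labels and the targeted transcript therefore do not go against each other. The difference was -0.34 ± 0.08 (1.27-fold lower) at the brighter and -0.58 ± 0.13 (1.49-fold lower) at the dimmer probe set. Neither passed in limma over all 45037 probe sets (adjusted p = 0.999 for both), and the 2-sided exact permutation p was 0.1, the smallest that 3 arrays against 3 allow. In set A it was -0.36 and in set B -0.35 at the brighter probe set, and -0.64 and -0.54 at the dimmer one. The step from WT to he, which shares the he arrays, was -0.35 at the brighter and -0.48 at the dimmer probe set. A transcript signal remained in me, and the probe sets do not show whether it encodes protein.

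No probe set passed across the genome. With limma 0 of 45037 probe sets (0%) had an adjusted p under 0.05 between me and he, and the smallest adjusted p was 0.252. At an unadjusted p under 0.05 there were 1447 (3.21%), of which 759 were higher and 688 lower in me. With 1 probe set for each of 18193 genes, 392 (2.15%) were higher and 249 (1.37%) lower at that threshold. The me arrays lay above every he array at 727 probe sets (1.61%) and below every he array at 494 (1.1%). Without me 3, a setting chosen after seeing the data, these counts were 1282 (2.85%) and 854 (1.90%). Fewer arrays make non-overlap easier by themselves, so the rise in these counts says nothing about me 3. Without the array set term the count at an unadjusted p under 0.05 was 301, and with sex as a further term it was 2964. A fit that weighted arrays by their estimated quality called 10 probe sets (0.0222%), 3 higher and 7 lower. That fit gave he 1 a weight of 7.45 and the other arrays 0.322 to 1.65, so its calls lean on a single he array. Without me 2, the only me array of set B, there were 2 calls, Jchain (difference 2.84) and a probe set not assigned to 1 single gene.

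Differences between the genotypes in one set of arrays mostly did not recur in the other. Of the 22519 probe sets in the upper range of level (the median or above), 48.2% differed in the same direction in sets A and B. Of the 100 with the largest difference in set A, 64 had the same direction in set B, where their median difference in that direction was 0.06 against 0.95 in set A. Of the 100 largest in set B, 61 had the same direction in set A, with a median of 0.07 against 0.86. The difference between sets passed at 0 probe sets in limma, with 873 at an unadjusted p under 0.05. The genes described next were chosen for small p among genes that differed in the same direction in both sets, so their recurrence is a condition of choice and not a result.

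**Figure D1:**
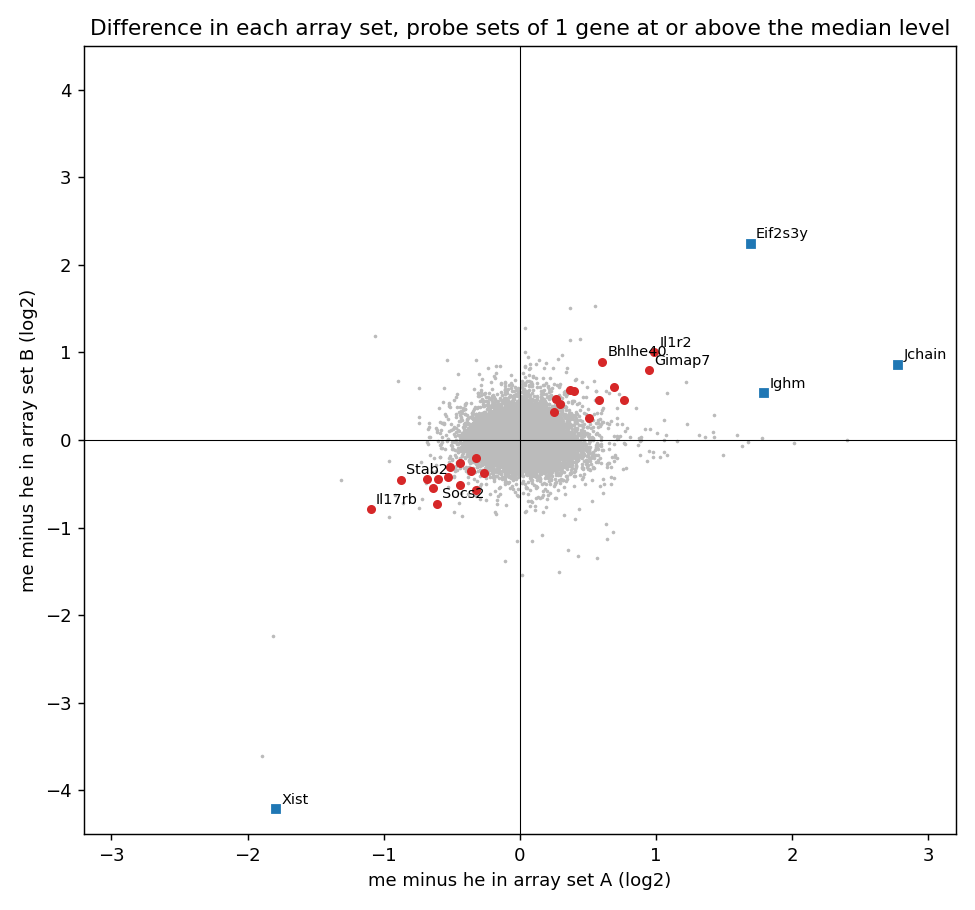
The me minus he difference (log2) within array set A (horizontal axis) and within array set B (vertical axis), for probe sets of 1 gene with a level no lower than the median. Red points are Ptpn6 and the 24 genes of smallest p, chosen for the same direction in both sets, and blue squares are Jchain, Ighm and 2 genes that mark sex. The grey cloud shows no common direction, and Jchain stood at 2.78 for set A and 0.86 for set B.

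The 24 genes were 12 in each direction. All 12 higher genes were higher, and all 12 lower genes lower, in each me array than in every he array of its own set. Of these, 9 and 5 did so across sets as well. Over all 45037 probe sets 3727 were higher and 4339 lower in this way within both sets. The choice by small p and the same direction in both sets favours such separation, so it is not a result. Array me 3 and he 1 are both female and both in set A, and between them all 24 genes differed in the direction of the fit, which used these arrays. Just outside the choice lay Nrgn and Jchain among the higher genes and, among the lower ones, Ptpn6 itself, which came next in order at its dimmer probe set.

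Socs2 had the smallest p on the lower side. This suppressor of cytokine signalling, which STAT5 induces, stood at 9.96, 9.06 and 9.23 in he at its brightest probe set and 9.38, 8.37 and 9.07 in me. He 1 was highest and me 2 lowest, and the groups overlapped until the sets were taken apart. The difference was -0.77 ± 0.09 (1.71-fold lower), with -0.74 in set A and -0.78 in set B (adjusted p = 0.252 in limma, 0.0181 with array weights). A second Socs2 probe set gave -0.65 ± 0.07 with the same 2 adjusted p-values. The remaining 4 Socs2 probe sets are dimmer, at a mean level of 7.24 to 7.64, and differed by -0.23 to 0.05. Between me 3 and he 1 the brightest one differed by -0.89. With no array set term the 2 Socs2 differences were -0.48 and -0.40. The he minus WT difference of Socs2, which shares the he arrays, was -0.12.

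Other genes of the JAK, STAT and SOCS list did not follow Socs2. Of 25 measured members 13 were higher and 12 lower, with a median of 0.01, and 1 in each direction had an unadjusted p under 0.05, against 2.15% of all genes higher and 1.37% lower. Jak2, a kinase of cytokine receptors, was 10.61, 11.27 and 11.03 in he and 10.77, 11.56 and 10.87 in me, a difference of 0.34 ± 0.09 that was 0.10 with no array set term. Cish, another suppressor that STAT5 induces, differed by -0.08 ± 0.14, Socs3 by -0.13 ± 0.24 and Socs1 by -0.06 ± 0.05. Stat5a and Stat5b, the transcription factors downstream of interleukin 2, differed by -0.05 ± 0.10 and 0.05 ± 0.13.

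Tesc encodes tescalcin, a calcium-binding protein. Its level was 11.38, 11.01 and 11.04 in he and 10.82, 10.61 and 10.89 in me. Every me array was below every he array, and the difference was -0.48 ± 0.06 (1.39-fold lower; adjusted p = 0.351 in limma, 0.0181 with array weights). The second, dimmer Tesc probe set differed by -0.37 ± 0.07.

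Interleukin receptors lay at both ends of the order. Il1r2, the decoy receptor that binds interleukin 1 without signalling, was 9.10, 9.43 and 9.70 in he and 9.92, 10.57 and 10.24 in me. All me arrays were above all he arrays, with a difference of 1.01 ± 0.16 (2.02-fold higher; adjusted p = 0.998), 0.98 in set A and 1.01 in set B. Between he and WT it differed by 0.01. Il17rb, which forms part of the receptor for interleukin 25, was 9.76, 9.22 and 9.70 in he and 8.91, 8.67 and 8.42 in me. All me arrays were below all he arrays, with a difference of -0.97 ± 0.16 (1.96-fold lower; adjusted p = 0.998 in limma, 0.0446 with array weights). Their list, the receptors and ligands of the interleukin 1, 17, 18 and type 2 families, had 12 of 26 members higher and 14 lower with a median of -0.02. Il1rn, the soluble interleukin 1 antagonist, differed by 0.28 ± 0.09, and Il1r1, the signalling receptor, by 0.04 ± 0.15.

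Il6ra, the interleukin 6 receptor chain of resting T cells, was 10.35, 10.19 and 9.59 in he and 9.29, 9.26 and 9.56 in me. He 3 stood close to me 3, yet no arrays overlapped, and the difference was -0.78 ± 0.18. Other genes of naive and resting T cells had no common direction. Their list had 7 of 19 members higher and 12 lower, and its median was -0.31 in set A and 0.14 in set B. Ccr7 and S1pr1, receptors that keep naive cells in nodes and in circulation, differed by -0.13 ± 0.11 and -0.02 ± 0.14.

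Transcription regulators were also found on both sides. Bhlhe40, a repressor induced in activated T cells, was 10.33, 10.41 and 10.25 in he and 10.96, 11.23 and 10.91 in me. The groups stood well apart, by 0.73 ± 0.12 (1.66-fold higher; adjusted p = 0.998 in limma), while he and WT differed by -0.03. Hmgn3, a nucleosome-binding protein, was 9.20, 9.33 and 9.30 in he and 9.86, 9.93 and 9.92 in me, a difference of 0.68 ± 0.12, with 0.43 ± 0.12 at its second probe set. Hes1, a repressor downstream of Notch, was 8.40, 8.34 and 8.27 in he and 7.94, 8.0 and 7.84 in me, a difference of -0.41 ± 0.07 (adjusted p = 0.998 in limma, 0.0446 with array weights). All 3 me arrays lay outside the he range for each of these genes. Of the 20 measured effector T cell transcription factors 13 were higher and 7 lower in me, with a median of 0.07. Eomes, a regulator of cytotoxic and memory cells, differed by 0.39 ± 0.09, and Ikzf3 (Aiolos) by -0.51 ± 0.14 (-0.19 with no array set term).

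**Figure D2:**
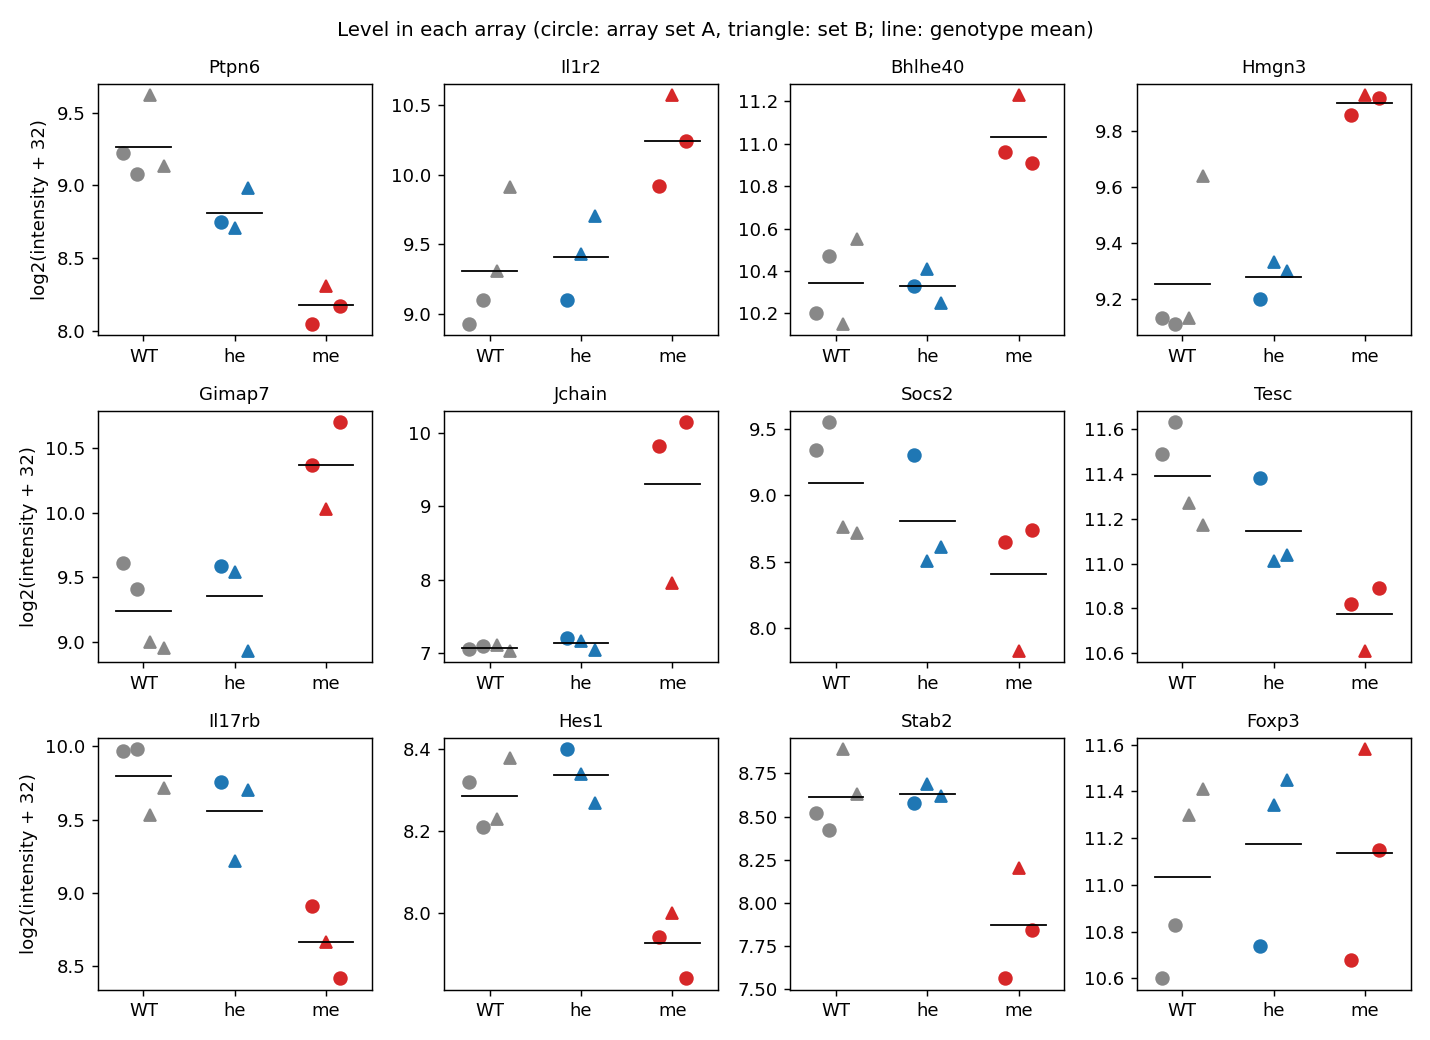
Level of 12 genes in each array, as log2(intensity + 32) on the vertical axis, for WT, he and me; circles are array set A, triangles set B and lines the mean of each genotype. For Ptpn6, Il1r2, Bhlhe40, Hmgn3, Gimap7, Jchain, Tesc, Il17rb, Hes1 and Stab2 the me arrays do not overlap the he arrays, while for Socs2 and Foxp3 they do.

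The remaining higher genes had diverse roles. Casp4, an inflammatory caspase that senses bacterial lipopolysaccharide, was 8.68, 7.97 and 7.79 in he and 9.10, 8.44 and 9.05 in me. He 1 lay above me 2, yet within each set the me arrays were higher, and the difference was 0.47 ± 0.06 (adjusted p = 0.498 in limma, 0.0230 with array weights). Fkbp5, a co-chaperone that glucocorticoids induce, differed by 0.36 ± 0.07. Of the 20 measured glucocorticoid-induced genes 9 were higher and 11 lower, so Fkbp5 did not stand for its list. Glt28d2 differed by 0.29 ± 0.06. Ttn (titin) differed by 0.46 ± 0.09 at the chosen probe set and by 0.61 ± 0.21 at another, but by 0.06 ± 0.24 at its brightest and by -0.06 to 0.01 at the other 3. Sostdc1, a secreted antagonist of BMP and Wnt signals, differed by 0.50 ± 0.10 at 1 probe set, by 0.17 there with no array set term, and by 0.08 ± 0.11 at the second. The probe sets of both genes disagree. Csnk2a1, a catalytic subunit of casein kinase, differed by 0.36 ± 0.06 at 1 probe set and by -0.02 to 0.05 at its other 5, so these disagree too. Ms4a1 and Ly86 belong to marker lists of other cells and are given with them.

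The remaining lower genes included Stab2, a scavenger receptor that binds hyaluronan. It stood at 8.58, 8.69 and 8.62 in he and 7.56, 8.20 and 7.84 in me, with no overlap and a difference of -0.66 ± 0.11 (adjusted p = 0.998 in limma, 0.0446 with array weights). Cmtm6, a membrane protein that stabilises PD-L1, differed by -0.47 ± 0.08, and by -0.17 ± 0.11 at its second, dimmer probe set. Chdh, choline dehydrogenase, differed by -0.56 ± 0.12. Hnrnpf, a splicing regulator, differed by -0.31 ± 0.06 at its brightest probe set and by -0.27 ± 0.06 at the next. At its dimmer ones the difference was -0.07 ± 0.10 and 0.04 ± 0.10. H2ac19, a histone gene, differed by -0.26 ± 0.05. Histone H2A genes are close copies, so H2ac19 may share signal with relatives. Hspa8, a constitutive chaperone, differed by -0.34 ± 0.07 at its dimmest probe set and by -0.10 to 0.09 at 3 brighter ones. Ywhaz (14-3-3 zeta) differed by -0.47 ± 0.10 at the chosen probe set and by -0.33 to 0.18 at 6 others, and E330020D12Rik by -0.55 ± 0.11. For Hnrnpf, Hspa8 and Ywhaz the probe sets therefore disagree. With no array set term the differences of H2ac19, Hspa8, Ywhaz and E330020D12Rik were -0.05, -0.13, -0.28 and -0.25.

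**Figure D3:**
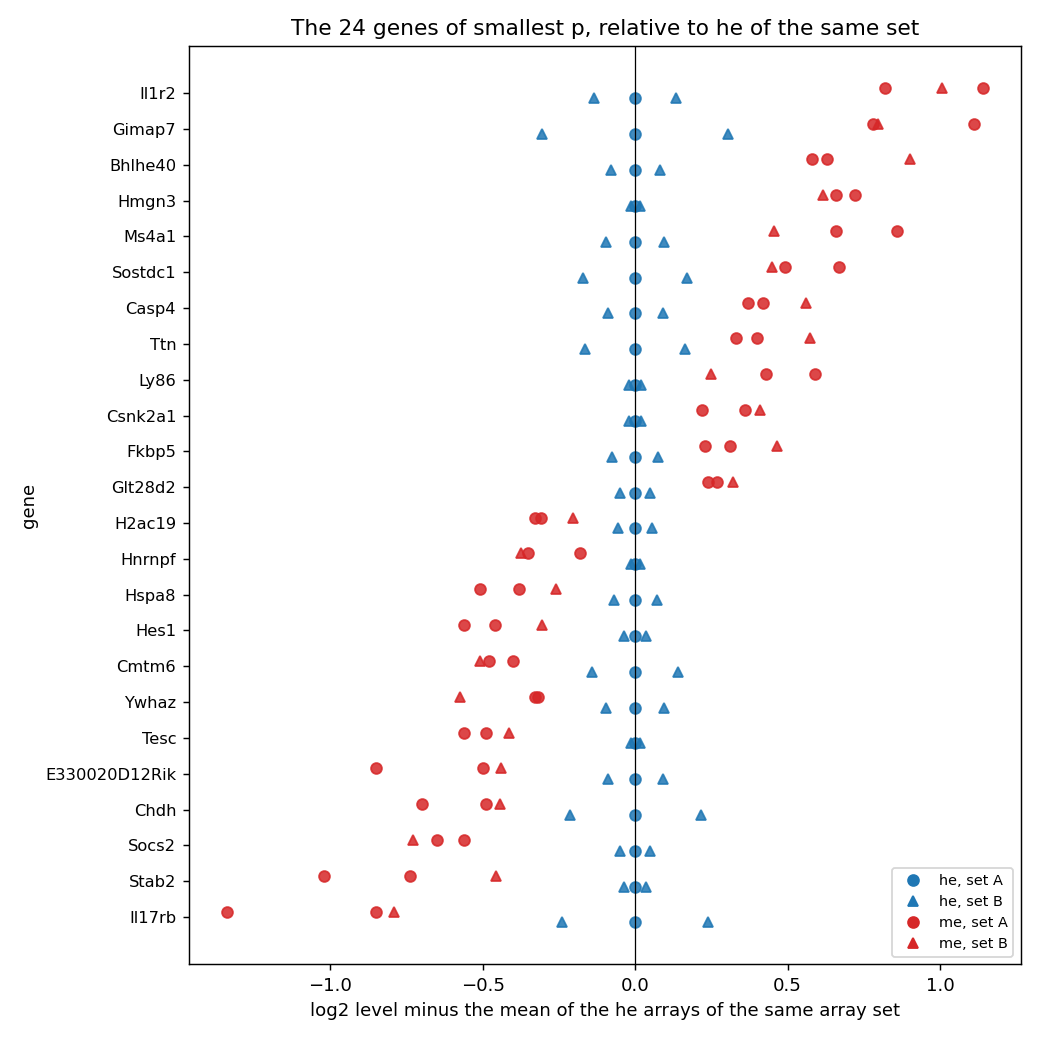
The 24 genes of smallest p, with the level of each he array (blue) and each me array (red) minus the mean of the he arrays of the same array set (log2, horizontal axis); circles are set A and triangles set B. The single he array of set A is at 0 by construction, and the me points lie on one side of it for each gene. The choice of genes required this of the mean difference within each set, not of each array.

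Promoter sequence is shown for the genes of this group that carry the E-box CACGTG, the site of basic helix-loop-helix proteins such as Bhlhe40, because Bhlhe40 was among the higher genes. RefSeq promoters (GRCm38.p6, 250 bases before the start) were matched for 16 of the 24 genes, and 3 of them held the motif, which reads the same on both strands. Of all 32851 promoters of that length 6.02% held it. Il1r2 held it at 238 and 195 bases before the start, Fkbp5 at 169 and Hnrnpf at 79. Il1r2 and Fkbp5 were on the higher and Hnrnpf on the lower side, so the letters did not go with one direction. The STAT motif TTCNNNGAA was in the window of Il1r2 and Chdh, and in 7.02% of all. The windows are chr1:40085843-40086092 on the plus strand, chr17:28486150-28486399 on the minus strand and chr6:117907554-117907803 on the plus strand, written with the E-box in capitals. A match is a description of the letters only.
Il1r2: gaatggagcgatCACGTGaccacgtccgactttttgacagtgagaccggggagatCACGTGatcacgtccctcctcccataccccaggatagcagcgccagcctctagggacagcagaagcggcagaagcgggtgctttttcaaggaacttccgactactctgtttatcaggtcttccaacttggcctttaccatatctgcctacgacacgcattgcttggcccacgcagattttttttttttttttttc
Fkbp5: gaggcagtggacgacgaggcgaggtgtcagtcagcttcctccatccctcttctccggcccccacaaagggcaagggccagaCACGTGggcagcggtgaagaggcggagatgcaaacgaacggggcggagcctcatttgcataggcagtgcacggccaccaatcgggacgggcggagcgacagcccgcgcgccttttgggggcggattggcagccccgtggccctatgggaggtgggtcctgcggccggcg
Hnrnpf: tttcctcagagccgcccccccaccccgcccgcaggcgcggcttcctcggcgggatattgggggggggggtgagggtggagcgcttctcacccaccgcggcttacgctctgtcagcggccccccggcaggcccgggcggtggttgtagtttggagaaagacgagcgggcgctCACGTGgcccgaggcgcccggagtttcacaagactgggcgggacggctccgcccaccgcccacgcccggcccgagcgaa

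Receptors of the kind that recruits SHP-1 had small positive differences that depended on the fit. Of 26 measured receptors with inhibitory motifs 22 were higher and 4 lower, with a median of 0.10, against 51.8% of all genes higher and a median of 0.0038. With no array set term 15 of 26 were higher with a median of 0.03, without me 3 it was 17 of 26 with a median of 0.05, and without he 2 it was 18 of 26. Their summed intensity was 12184, 11129 and 12263 in he and 14025, 13783 and 14271 in me, so each me array was above each he array, also with the brightest member, Cd5, left out (9210 to 10247 against 11151 to 11654). At an unadjusted p under 0.05 stood 3 of 26 higher and 0 lower, against 2.15% and 1.37% of all genes, and none passed over all genes. Cd22, an inhibitor of the B cell antigen receptor, was 7.87, 8.44 and 8.01 in he and 8.22, 8.79 and 8.79 in me, a difference of 0.63 ± 0.16. Cd5, which restrains antigen receptor signals in T cells, was 11.07, 10.93 and 11 in he and 11.23, 11.19 and 11.62 in me, a difference of 0.28 ± 0.10 with no overlap. Klrb1b, a lectin receptor with an inhibitory motif, was 8.54, 9.83 and 9.45 in he and 9.01, 10.42 and 8.76 in me, a difference of 0.49 ± 0.17 that was 0.23 without me 2 and 0.12 with no array set term. Klrg1, a receptor of effector Treg and killer cells, differed by 0.28 ± 0.26, Btla by 0.20 ± 0.16 and Pdcd1 (PD-1) by 0.05 ± 0.07. The list's median was 0.14 in set A and 0.03 in set B. Cd22 is also a B cell marker. Of other B cell markers Ms4a1 stood higher in the same arrays, Cd79a and Pax5 hardly differed, and Blk was lower (-0.66 ± 0.25). On that marker list 17 of 26 members were higher and 9 lower.

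Among protein tyrosine phosphatases other than Ptpn6 no shift was seen. Of 20 measured members 11 were higher and 9 lower, with a median of 0.03, and none had an unadjusted p under 0.05. Ptpn11 (SHP-2), the closest relative, differed by 0.06 ± 0.08, Ptpn22 by 0.02 ± 0.09 and Ptprc (CD45) by -0.07 ± 0.11. Genes that lie beside Ptpn6 on chromosome 6 likewise had 21 of 36 members higher and none at that threshold, with Cd27 lowest at -0.27 ± 0.12 and Cdca3 highest at 0.30 ± 0.22.

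GIMAP GTPases are proteins of lymphocyte survival encoded in one cluster. The fit over all arrays put 8 of the 8 measured higher in me, with a median of 0.30, but without me 2 it was 4 of 8 and without he 3 it was 5 of 8. Gimap7 was 9.59, 9.54 and 8.93 in he and 10.37, 10.03 and 10.70 in me. It alone of the 8 had no overlap, with a difference of 0.86 ± 0.15 (1.81-fold higher; adjusted p = 0.999). A second, dimmer Gimap7 probe set overlapped and differed by 0.10 ± 0.08, with 0.14 in set A and 0.0040 in set B. Gimap3 differed by 0.57 ± 0.17 (0.0083 with no array set term), Gimap4 by 0.60 ± 0.39 and Gimap6 by 0.41 ± 0.33, while Gimap9 differed by 0.01 ± 0.25 and Gimap1 by 0.05 ± 0.16. Their median was 0.07 in set A, 0.51 in set B and 0.11 without me 2.

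Treg identity genes were present in all arrays, and most differed little. Foxp3, the lineage factor, was 10.74, 11.34 and 11.45 in he and 10.68, 11.58 and 11.15 in me, well above the median probe set of 7.64. The difference was 0.18 ± 0.12 with array set in the fit and -0.04 without it, and it ran from 0.07 without me 3 to 0.29 without me 1. Il2ra, the CD25 chain used to sort the cells, was 10.39, 10.46 and 10.64 in he and 10.22, 10.26 and 10.00 in me. Here each me array was below each he array, by -0.28 ± 0.11, without passing (adjusted p = 0.999 in limma). Ctla4 differed by 0.26 ± 0.28, by 0.07 without me 1 and by -0.09 with sex in the fit. Ikzf2 (Helios) differed by -0.03 ± 0.11, Tnfrsf18 (GITR) by 0.0033 ± 0.06 and Cd4 by 0.19 ± 0.11. The signs of the Ikzf2 and Tnfrsf18 differences turned under other settings.

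The wider Treg signature had 16 of 24 members higher and 8 lower, with a median of 0.09 that was -0.002 when arrays were centred on their medians. At an unadjusted p under 0.05 stood 4 of 24 higher and 2 lower, against 2.15% and 1.37% of all genes. Cd83, a marker of activated Treg and antigen-presenting cells, was 9.59, 9.80 and 9.76 in he and 10.30, 10.15 and 10.32 in me, a difference of 0.62 ± 0.14 with no overlap. Tnfrsf9 (4-1BB), an activation receptor, differed by 0.41 ± 0.16, and Nrp1, a surface receptor of thymic Treg cells, by 0.32 ± 0.12. Penk, which encodes enkephalin, differed by 0.65 ± 0.24, and Itgae (CD103) by -0.38 ± 0.22. Among suppressive mediators Fgl2, a secreted effector, differed by -0.55 ± 0.21 (-0.27 with no array set term), and 8 of 18 were higher with 10 lower.

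NF-kappa B genes had 15 of 19 members higher, with a median of 0.07. That median was 0.03 without me 3, 0.14 without he 2 and 0.02 with array weights, where 12 of 19 were higher. Traf1, an adaptor of TNF receptors, was 10.01, 9.72 and 9.73 in he and 10.61, 10.10 and 10.62 in me, a difference of 0.48 ± 0.15 with no overlap. Nfkbie and Nfkb2 differed by 0.31 ± 0.20 and 0.26 ± 0.20, while Nfkbia, the most abundant inhibitor, differed by -0.09 ± 0.07. Traf1 was thus the 1 member with an unadjusted p under 0.05. Birc2, an inhibitor of apoptosis that acts with TNF receptor adaptors, differed by 0.38 ± 0.12, and Bid, a death agonist, by 0.26 ± 0.10, on a list of apoptosis genes with 12 of 26 higher.

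Antigen receptor components were level as a group, with 14 of 28 higher and 14 lower. Cd247, the zeta chain of the receptor complex, was 10.42, 10.40 and 10.11 in he and 10.14, 9.86 and 10.19 in me, a difference of -0.33 ± 0.08. The immediate early and feedback genes had 18 of 28 members lower and a median of -0.07, which was -0.21 in set A, 0.03 in set B and 0.03 without he 1. Fos and Fosb, early factors of activation and of tissue handling, differed by -0.31 ± 0.13 and -0.27 ± 0.09. Neither gene separated the groups.

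Growth and housekeeping groups showed small or set-bound differences. Ribosome biogenesis factors had 15 of 32 members higher, yet their summed intensity was 37359 to 40150 in he and 36232 to 37087 in me, below each he array. Without the brightest member, Npm1, the sums overlapped (29043 to 31290 against 28811 to 29672). Npm1 (nucleophosmin), the brightest of those named, was 13.03, 13.06 and 13.12 in he and 12.86, 12.89 and 12.74 in me, a difference of -0.21 ± 0.06 with no overlap. Rrs1 and Dkc1, which act in ribosome assembly and rRNA modification, differed by -0.25 ± 0.08 and -0.20 ± 0.06. Proteasome subunits had 23 of 32 higher and a median of 0.05, which was -0.03 with arrays centred on their medians. Genes of DNA replication differed by a median of -0.03 and of mitosis by 0.05, but for mitosis the medians were 0.20 in set A and -0.13 in set B. Slc2a3, a glucose transporter, differed by 0.36 ± 0.12 with no overlap, while the glycolysis and hypoxia list had a median of 0.04. Of all 38 lists, 21 had a median that turned its sign when some single array was left out.

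**Figure D4:**
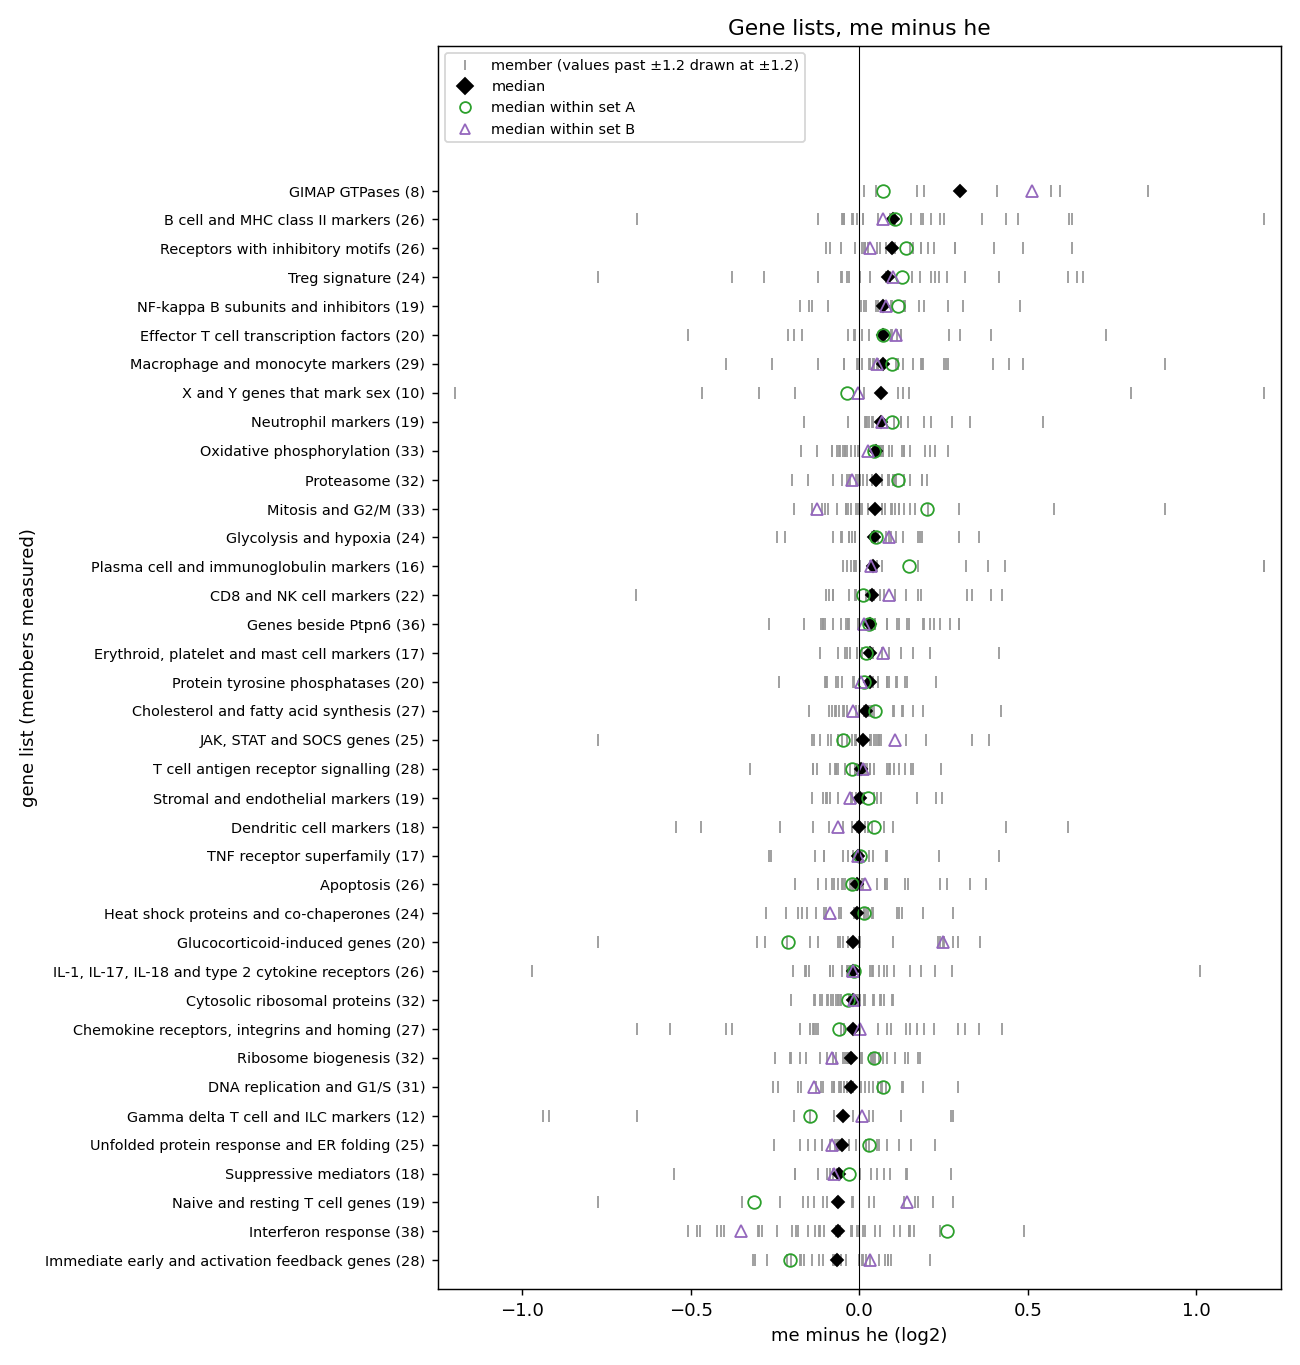
The me minus he difference (log2, horizontal axis) for the members of 38 gene lists (grey ticks), with the median over members (black diamond) and the medians within array set A (green circle) and set B (purple triangle). The number of measured members is in brackets. The GIMAP list has the highest median, and for interferon response and mitosis the set medians lie on opposite sides of 0.

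Homing and chemokine receptors were divided, with 13 of 27 higher and 14 lower. Ccr10, a receptor of skin and mucosal homing, differed by -0.56 ± 0.19 and Ccr2, a receptor for inflammatory chemokines, by -0.40 ± 0.14, both with overlap. Gpr183, an oxysterol receptor that positions lymphocytes, differed by 0.42 ± 0.13. With no array set term these 3 differences were -0.33, -0.04 and 0.04.

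A few transcripts of the antibody lineage, Jchain and Ighm foremost, had higher levels in me that were uneven between its arrays. Jchain, the joining chain of polymeric antibody, was 7.21, 7.16 and 7.04 in he and 9.82, 7.96 and 10.14 in me. The he arrays were as low as WT, the set A me arrays were far higher and me 2 was between, with a difference of 1.97 ± 0.40 (3.92-fold; adjusted p = 0.999). Without me 2 the difference was 2.84 with an adjusted p of 2.8e-04 in limma. Me 2 is the me array with the lowest Jchain and the only one of set B, so leaving it out raises the difference by itself. The me arrays that remain share their set with he 1 alone of the he arrays. Ighm, the heavy chain of IgM, was 11.49, 11.07 and 11.40 in he and 13.01, 11.77 and 13.56 in me, a difference of 1.22 ± 0.29. Iglv1, a light chain segment, differed by 0.38 ± 0.07 and Mzb1, a chaperone of antibody-secreting cells, by 0.32 ± 0.10. Over the plasma cell list 10 of 16 were higher with a median of 0.04. The summed intensity was 6982 to 8554 in he and 8508 to 19457 in me, so that me 2 lay below he 1. These arrays are of different sets, and within each set every me sum was above every he sum. Lists of other kinds were separated in that way too. Sums of cholesterol and fatty acid synthesis genes were 13570 in he 1 against 13664 and 13889 in me 1 and me 3. In set B they were 11565 and 11724 in he against 12048 in me 2. With so few arrays in a set, such separation is easily met. Prdm1 and Sdc1, a regulator and a surface marker of plasma cells that other cells also express, differed by -0.01 ± 0.19 and -0.03 ± 0.22, and Igha, the IgA heavy chain, by -0.01 ± 0.07.

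B cell and MHC class II markers had 17 of 26 members higher, with summed intensity of 7875 to 10475 in he and 11308 to 18839 in me. Ighm is on this list too and has the highest mean level on it. With Ighm left out the sums overlapped across array sets, at 5022, 7472 and 7803 in he and 5480, 7849 and 6780 in me. Within each set every me sum was still above every he sum, in set B narrowly (7849 against 7472 and 7803). The erythroid, platelet and mast cell list without its brightest member was separated within sets as well. Ms4a1 (CD20) was 7.27, 7.85 and 7.66 in he and 7.93, 8.21 and 8.13 in me, a difference of 0.62 ± 0.11 with no overlap. Its second, dimmer probe set differed by 0.22 ± 0.09. H2-Eb1, a class II chain, differed by 0.47 ± 0.22 and Cd74, the invariant chain, by 0.36 ± 0.22. The defining B cell genes Cd79a and Pax5 differed by -0.01 ± 0.07 and -0.04 ± 0.10, at mean levels of 7.34 and 7.73, near the median probe set. Blk, also on this list, was 8.19, 8.82 and 7.77 in he and 7.72, 7.47 and 7.69 in me, with no overlap. It differed by -0.66 ± 0.25. At an unadjusted p under 0.05 stood 4 of 26 higher and 1 lower, Blk, against 2.15% and 1.37% of all genes. Markers of the B cell lineage thus did not move as 1 block, and the part of such cells in the differences was not tested.

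Myeloid marker lists had small median differences, though members of the macrophage and monocyte list ran from -0.40 to 0.91. Neutrophil markers had 17 of 19 members higher with a median of 0.06, and macrophage and monocyte markers 22 of 29 with a median of 0.07. In each list 4 were higher and 1 lower at an unadjusted p under 0.05, against 2.15% and 1.37% of all genes. The lower ones were Ltf (lactoferrin) at -0.16 ± 0.07 and Ccr2 at -0.40 ± 0.14. Summed intensity overlapped between he and me in both lists, at 2884 to 3352 against 2985 to 3524 and at 11551 to 13794 against 12175 to 15731. The overlap was across array sets, and within each set every me sum was above every he sum in both lists. That was not particular to myeloid markers, since sums of cholesterol synthesis genes and of erythroid, platelet and mast cell markers were separated likewise. S100a8, a calprotectin subunit of neutrophils and monocytes, was 7.32, 7.21 and 7.24 in he and 7.43, 7.87 and 8.10 in me, a difference of 0.55 ± 0.15. S100a9, its partner, differed by 0.33 ± 0.12 with overlap, and by 0.20 without me 2. Ly86 (MD-1), a partner of a Toll-like receptor homologue on B cells and myeloid cells, was 7.60, 7.42 and 7.38 in he and 8.03, 7.65 and 8.19 in me, a difference of 0.40 ± 0.08. These probe sets were dim in he, and Cd14, C1qa and Cd68 of the same kind of cell differed by 0.01 ± 0.04, 0.07 ± 0.08 and -0.01 ± 0.07.

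Markers of other cell types were divided. CD8 and NK cell markers had 14 of 22 higher with overlapping sums, and Cst7 (cystatin F) was 9.16, 9.07 and 9.36 in he and 9.77, 9.52 and 9.74 in me, a difference of 0.43 ± 0.11. At an unadjusted p under 0.05 stood 3 of 22 higher and 0 lower, against 2.15% and 1.37% of all genes. Gamma delta T cell markers had 7 of 12 lower, led by Cd163l1 (SCART1) at -0.94 ± 0.31 and the gamma chain segment Trgv4 at -0.92 ± 0.37. Within he these genes ran from 8.65 to 10.15 and from 8.22 to 9.67, with he 3 lowest in both. Of the 12 gamma delta markers 3 were lower and 0 higher at an unadjusted p under 0.05, against 1.37% and 2.15% of all genes. Blk, a kinase of B cells and gamma delta T cells that is on both lists, differed by -0.66 ± 0.25 with no overlap. Without he 2 the Trgv4 difference was -0.60 and that of Blk -0.39.

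**Figure D5:**
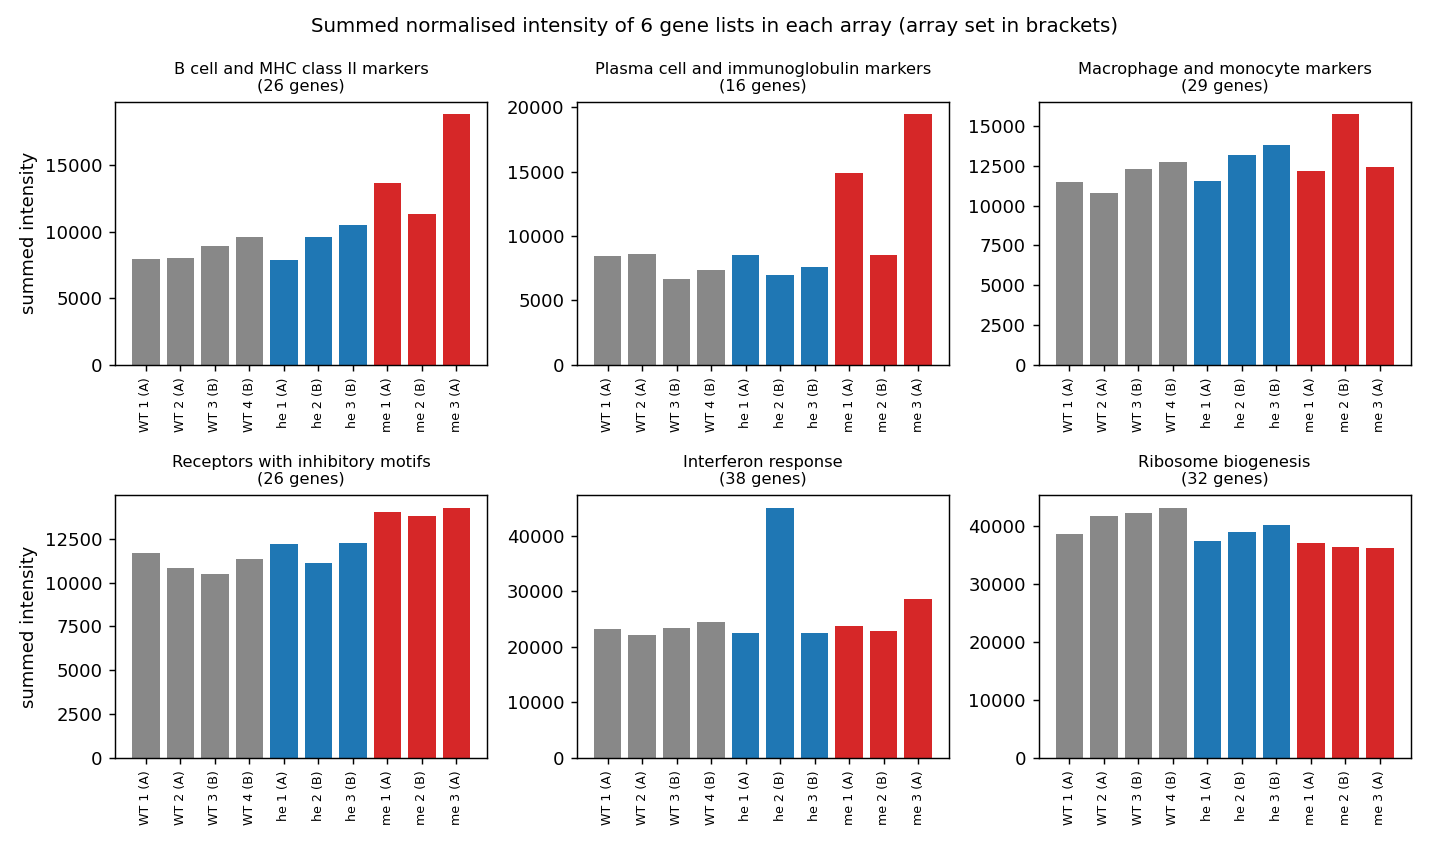
Summed normalised intensity of 6 gene lists in each array, by WT (grey), he (blue) and me (red), with the array set in brackets. Sums of inhibitory receptors and B cell markers are higher in each me array than in each he array. Sums of ribosome biogenesis factors are lower in each me array. Without Ighm the B cell sums overlap across array sets but not within them, and without Npm1 the ribosome sums overlap. The interferon sum is highest in he 2.

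The interferon comparison turned with single arrays. Over 38 interferon response genes the summed intensity was 22493 in he 1, 45024 in he 2 and 22535 in he 3, against 23732, 22891 and 28566 in me 1 to 3. He 2 was the highest of all 10 arrays for 24 of the 38 genes. Ifit1, an antiviral RNA-binding protein, was 7.93, 10.63 and 7.47 in he and 8.18, 7.70 and 8.82 in me, so that neither genotype was uniform. The list's median difference was -0.06 over all arrays, 0.26 in set A, -0.35 in set B, 0.19 without he 2 (31 of 38 higher), 0.11 without me 2 (25 of 38) and -0.26 without he 1. It was -0.18 without he 3, -0.17 without me 3, 0.02 with array weights and 0.0084 with sex in the fit. Oas1a, an antiviral enzyme, differed by 0.49 ± 0.15 and Gbp3, a guanylate-binding protein, by -0.48 ± 0.19.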

How the data were processed

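The authors deposited a linear intensity for each probe set on each array. How it was summarised, background-corrected and scaled is not given in the sources consulted. Array medians ran from 148 to 188. Of 45101 probe sets 64 controls were left out. The platform annotation named 1 gene for 34945 of the 45037 tested, several for 932 and none for 9160. Values were taken as log2(intensity + 32) and quantile normalised. In lists and counts of genes a gene stands for its probe set with the highest mean, and in the order by p for its probe set of smallest p.

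Arrays were put in sets by clustering on correlation. The test was limma 3.58.1 in R 4.3.3 on 10 arrays with genotype and array set (6 residual degrees of freedom). P-values were adjusted by Benjamini-Hochberg over all 45037 probe sets, with a threshold of 0.05, and the procedure was checked on simulated data. Calls under 0.05 without adjustment are counts, not findings. The arrays, the 38 gene lists (907 of 1001 entries matched, 3 through a synonym) and the rule for named genes were chosen with earlier results of these data known. The rule names Ptpn6, the 12 genes of smallest p in each direction, at or above the median level and of the same sign in both sets, since none passed, up to 3 members of a list with an unadjusted p under 0.05, Treg genes and genes that mark sex. Members given beside these were chosen after their values were seen, for their known role. He and me comparisons with WT share arrays with this one. Replicate numbers are shared between genotypes. Deviations from the genotype mean correlated at 0.927, 0.688 and -0.397 for numbers 1 to 3. The correlation was 0.775 for he 3 and me 2, which share a set, while he 3 and me 3 do not. The deviations thus follow array set and cannot show whether the numbers pair samples. The labels name no pairs, and the numbers were not taken as such. The number of arrays limits precision.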

Additional observations from a re-analysis of the deposited data

Results flagged for a closer look

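Of 35 probe sets checked for an array far from the rest of the WT group, 1 stood out. For Hmgn3, WT 4 was at 9.64 and the other 3 WT arrays at 9.11 to 9.13, and the gap was 0.971 of the range, above Dixon's limit for 4 arrays. Chance flags about 1 in 20 groups. All he and me arrays of Hmgn3 lay close to their genotype mean, and me arrays stood above WT 4.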

How the results depend on the processing

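The count of probe sets past the threshold was 0 under all settings run, except with array weights (10) and over the fits that left out 1 array (0 to 2). With no array set term it was 0, again with 0 to 2 over left-out arrays, and 27288 with array weights, a fit that gave me 3 a weight of 26.6 and he 2 one of 7.08. The test of the difference between sets called 0, with 0 to 9 over left-out arrays, and could not be fitted without he 1 or me 2, which are alone in their set. The replicate block called 0 probe sets (666 at an unadjusted p under 0.05) and gave -0.40 and -0.63 for Ptpn6, so it changed no call. By correlation, which follows array set, 3 of 6 arrays went best with their own number. Ptpn6 kept its direction throughout. With no array set term or with me 3 counted in set B, Foxp3, Tyrobp and Epcam differed by -0.037, -0.12 and -0.46. With only he and me arrays and no term, or with the replicate block, they differed by -0.040, -0.12 and -0.45. With sex as a term Ctla4 differed by -0.088, Tnfrsf18 by -0.00053, Eif2s3y by -0.29 and Kdm5d by -0.28. Tnfrsf18 was -0.0046 with he and me arrays only, -0.031 without normalisation and -0.074 with median centring. Over left-out arrays it ran from -0.042 to 0.063 and Ikzf2 from -0.098 to 0.027. The cause of these turns was not tested.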
